A study of Rattus norvegicus with 20 samples.

Results

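The genes that break down fatty acids and use ketone bodies were examined in inguinal white adipose tissue (iWAT), a fat depot under the skin, of ZSF1 rats. The set was a list of 41 gene names chosen for their known roles, with earlier results of these data known. Shares of members set beside shares of all genes are therefore descriptions. Its members were the rows of the gene count table that carry these names. Of the 41 names 39 were found among the 32545 genes of the table, and all 39 had enough reads to be tested. Eci2 and Acot1 were not analysed here. By role the 39 genes comprised 5 of activation, 5 of the carnitine shuttle, 6 acyl-CoA dehydrogenases, 5 of the later steps of the spiral, 2 for unsaturated chains, 3 of electron transfer, 7 of the peroxisome, 1 thioesterase, 2 regulators and 3 of ketone use.

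All rats were male ZSF1-Lepr fa Lepr cp/Crl animals, offspring of a cross of strains that carry different mutations of the leptin receptor, fed the same high carbohydrate chow. The 4 groups compared had 5 rats in each. Cmpd 1 animals were obese rats, homozygous for leptin receptor deficiency, given chow mixed with Cmpd 1, an inhibitor of the protein kinases PKCα and PKCβ. Food matched animals were obese rats given no-drug chow in the amount that the Cmpd 1 group had eaten in the week before, so the intakes of these groups were staggered in time. Obese animals were obese rats with free access to no-drug chow, and Lean animals were ZSF1 rats that are not homozygous for the deficiency. Rats came onto the chow at 8 to 9 weeks of age, the study began at 21 to 22 weeks and it ran for 10 weeks. Food matched samples were taken as obese from titles that name obese rats under calorie restriction, although their phenotype entry reads lean. Because all obese rats lack leptin receptor function, the Obese versus Lean contrast joins genotype, overeating and obesity. The question of the study for iWAT was set by Obese versus Lean (the disease) and Cmpd 1 versus Food matched (the compound apart from food intake), and these contrasts have no rat in common. By the paper's account, Cmpd 1 rats ended lighter than Food matched rats, with less iWAT, smaller fat cells and less leukocyte staining. The paper also reports less liver vacuolation, and non-fasting insulin that appeared lower at the midpoint of the study and less clearly so at its end. Cmpd 1 versus Food matched therefore joins the compound with these differences.

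Fatty acids are first joined to coenzyme A by acyl-CoA synthetases. Long chains then enter mitochondria through the carnitine shuttle, whose entry enzyme is carnitine palmitoyltransferase 1. Inside, repeated rounds of dehydrogenation, hydration, a further dehydrogenation and thiolysis release acetyl-CoA, and the electrons pass through the electron transfer flavoprotein to the respiratory chain. Peroxisomes shorten very long and branched chains by a parallel route. White fat is known mainly for storing and releasing fatty acids, brown fat for burning them, and ketone bodies made in the liver are used in other tissues through Bdh1, Oxct1 and Acat1. The nuclear receptors Ppara and Ppard switch on many of these genes through direct repeats of the hexamer AGGTCA.

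Promoters were available for 36 of the 41 listed genes in the RefSeq table for the assembly GRCr8, each running from 250 bases before to 50 bases after the start site (300 bases). They are shown because the nuclear receptors of the list bind a known motif. The hexamer AGGTCA, on either strand, was in 8 of these 36 promoters (22.2%), those of Abcd2, Acad11, Acadvl, Echs1, Eci1, Eci2, Hadhb and Hsd17b4, and in 16.2% of all 33469 promoters. A direct repeat of the hexamer with 1 base between the copies and at most 1 mismatch over 12 bases, which by construction can overlap a hexamer match, was in 1 of 36, that of Acadvl, and in 0.439% of all promoters. The motif TCAAGGTCA, bound by estrogen-related receptors, was in 0 of 36 and in 0.433% of all promoters. A match describes the letters only and is not evidence of a bound site. Among the hexamer holders, Hadhb and Hsd17b4 had an adjusted p under 0.05 in neither Obese versus Lean nor Cmpd 1 versus Food matched. Acad10, also among the members with the largest changes in Obese versus Lean, does not hold the hexamer. A link between matches and changes was not tested. The 250 bases before the start site are given for Eci1 (chr10:13961000-13961249, plus strand) and Abcd2 (chr7:124191203-124191452, minus strand), which hold the hexamer and were among the members with the largest changes, and for Acadvl (chr10:55236706-55236955, minus strand), the member with the direct repeat. Capitals mark the hexamer on either strand and, at the end of the Acadvl sequence, the direct repeat.
Eci1: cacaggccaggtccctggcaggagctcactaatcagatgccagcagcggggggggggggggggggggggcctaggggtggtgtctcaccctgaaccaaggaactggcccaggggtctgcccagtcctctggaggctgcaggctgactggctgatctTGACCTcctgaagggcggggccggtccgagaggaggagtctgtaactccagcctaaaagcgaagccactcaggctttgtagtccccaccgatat
Abcd2: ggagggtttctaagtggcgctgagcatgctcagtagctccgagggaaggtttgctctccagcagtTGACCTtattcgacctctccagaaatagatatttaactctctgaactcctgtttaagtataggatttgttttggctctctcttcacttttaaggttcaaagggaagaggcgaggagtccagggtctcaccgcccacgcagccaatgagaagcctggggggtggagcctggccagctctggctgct
Acadvl: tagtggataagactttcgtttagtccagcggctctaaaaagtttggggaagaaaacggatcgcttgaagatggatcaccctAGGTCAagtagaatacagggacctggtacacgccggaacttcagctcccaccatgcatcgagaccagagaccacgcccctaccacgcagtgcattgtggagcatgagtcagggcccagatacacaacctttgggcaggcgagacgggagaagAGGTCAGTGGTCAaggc

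The libraries held 31716457 to 65759306 counted reads in Cmpd 1 rats, 54649679 to 74784655 in Food matched, 56743417 to 70206686 in Obese and 50604956 to 68048796 in Lean rats. Levels are given as counts scaled to library size (CPM), and as RPKM, which is CPM per kilobase of gene length, where genes are compared with each other. All 9 adipocyte markers examined were measured, with summed levels of 20580 to 22120 CPM in Cmpd 1, 19160 to 24390 in Food matched, 20770 to 24700 in Obese and 25760 to 30030 CPM in Lean rats. The 10 macrophage markers, none at 0, summed to 2918 to 4584 CPM in Cmpd 1, 5451 to 8841 in Food matched, 4729 to 6489 in Obese and 1166 to 1949 CPM in Lean rats. Skeletal muscle transcripts (12 of 14 listed markers tested) summed to 3721 and 6507 CPM in Lean rats 1 and 2. The sum was 103 CPM in Food matched rat 5, and no other library exceeded 27.3 CPM. Nerve markers summed to at most 267 CPM, gland epithelium markers to at most 118 CPM and liver or gut markers to at most 274 CPM, each in a Lean rat. Of 4 brown or beige fat markers Ucp1, the uncoupling protein that defines brown fat, was at most 1.29 CPM in any library and at 0 in 3 Lean rats, while Cidea, a lipid droplet protein of brown fat that white fat of rodents can also express, was at 134 to 186 CPM in Cmpd 1, 104 to 176 in Food matched, 133 to 171 in Obese and 80.2 to 109 CPM in Lean rats.

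In these libraries the set spanned more than 3 orders of magnitude. Acsl1, the main acyl-CoA synthetase of fat cells, stood first at 1010 RPKM averaged over the groups and made up 92.4 to 94.0% of the RPKM of the 5 Acsl genes in Cmpd 1, 89.4 to 93.0% in Food matched, 91.9 to 93.6% in Obese and 92.6 to 94.0% in Lean rats. Next came Acaa2, a mitochondrial thiolase, at 267 RPKM, then Hadhb, the beta subunit of the trifunctional protein, at 241, Oxct1, the transferase that commits ketone bodies to use, at 233, and Etfa, a subunit of the electron transfer flavoprotein, at 221 RPKM. The entry enzymes of the carnitine shuttle, Cpt1b at 21.3 and Cpt1a at 19.1 RPKM, ranked 27 and 28 of 39. At the bottom stood Ppara at 1.82, Echs1 at 1.21 and Acsl6 at 0.25 RPKM. Echs1 encodes the mitochondrial enoyl-CoA hydratase, and its level was far below those of its neighbours in the spiral. Since uniquely mapped reads alone were counted, its values are given as uncertain, and the reason for the low level was not tested. The median coefficient of variation between rats of a group was 7.49% over the 39 genes.

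**Figure D1:**
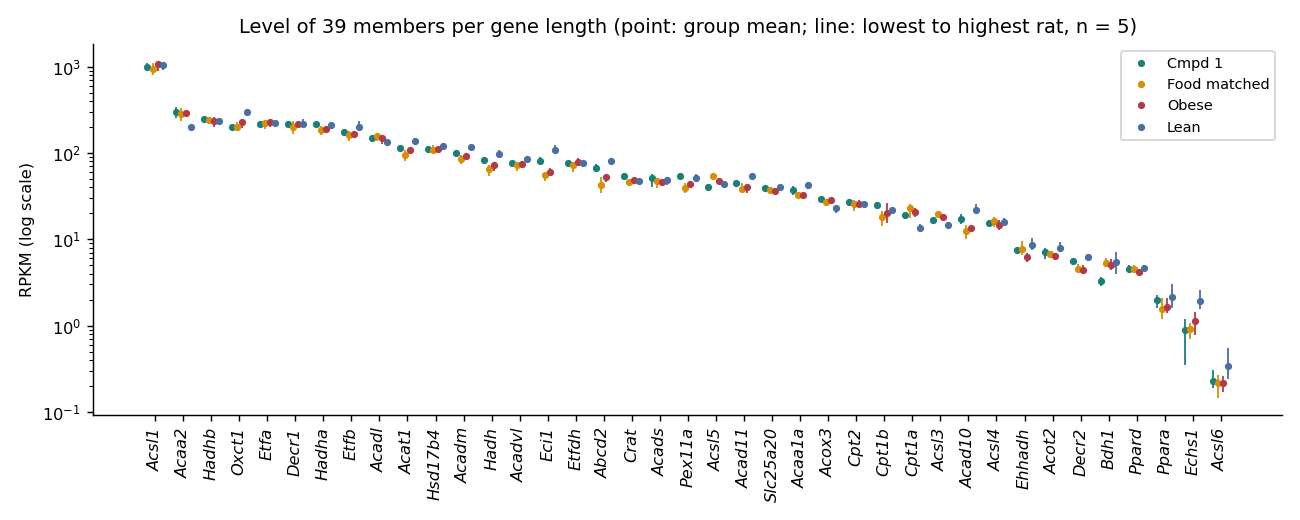
Levels of the 39 genes in RPKM on a log axis, ordered by their mean over the groups, with a point for each group mean and a line for the lowest to highest of 5 rats (Cmpd 1, Food matched, Obese and Lean from left to right within a gene). Acsl1 stands alone near 1010 RPKM, most members lie between 10 and 300 RPKM, and Echs1 and Acsl6 lie at the bottom.

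In Obese versus Lean, more members were lower than higher. Without a limit on the fold, an adjusted p under 0.05 was met by falls in 19 of 39 members (48.7%, against 24.5% of all 17653 genes tested) and by rises in 5 (12.8%, against 23.7%). With a fold over 1.5 as well, the definition of a differentially expressed gene (DEG), 5 members fell (Eci1, Acad10, Abcd2, Echs1 and Acsl6), which is 12.8% of members beside 11% of all genes, and 1 rose (Cpt1a, 2.56%), beside 11.3% of all genes. The median log2 fold change was −0.14 over members and −0.01 over all genes, and 28.2% of members had a positive sign, against 48.4% of all genes. All Obese rats lay below all Lean rats for 18 members (15.9% of all genes did so) and above them for 4 (17.7% of all genes). Marker sums also moved with these results. That of the adipocyte markers was lower in every Obese than in every Lean rat, as were those of the 4 adipose progenitor markers tested (1155 to 1635 CPM in Obese against 1744 to 2543 CPM in Lean rats, with 3 of 4 lower as DEGs) and of the liver or gut markers (18.6 to 22.1 CPM in Obese against 94.2 to 274 CPM in Lean rats). The skeletal muscle marker sum was also lower in every Obese rat (9.59 to 22.4 CPM, against 24.3 to 6507 CPM in Lean rats). All 12 muscle markers tested were lower as DEGs. The sum of the macrophage markers was higher in every Obese rat, as was the level of Cidea, whereas the 4 brown or beige markers were split, with 2 higher and 1 lower as DEGs. Their part in the members' changes was not tested. Without Lean rats 1 and 2, the DEGs were 3 lower members (Eci1, Acad10 and Abcd2) and 0 higher ones. Among all 17653 genes the same fit gave 1503 lower and 1874 higher DEGs. In bulk tissue, fewer cells of a type and less RNA per cell cannot be told apart.

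Cmpd 1 versus Food matched gave the opposite balance. At an adjusted p under 0.05, 13 of 39 members rose (33.3%, against 11.4% of all genes) and 4 fell (10.3%, against 11.4%). Only Abcd2 rose and only Bdh1 fell as DEGs among the members, beside 1.54% and 4.65% of all genes, so that most of these changes were under 1.5-fold. The median log2 fold change was 0.10 over members and 0.01 over all genes, with a positive sign in 74.4% of members and 51% of all genes. All Cmpd 1 rats lay above all Food matched rats for 8 members (7.05% of all genes) and below them for 3 (7.86% of all genes). The macrophage marker sum was lower in every Cmpd 1 than in every Food matched rat, with all 10 markers lower at an adjusted p under 0.05, while the adipocyte marker sums overlapped, with 5 of 9 markers higher and 2 lower. Their part in the results on the members was not tested.

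**Figure D2:**
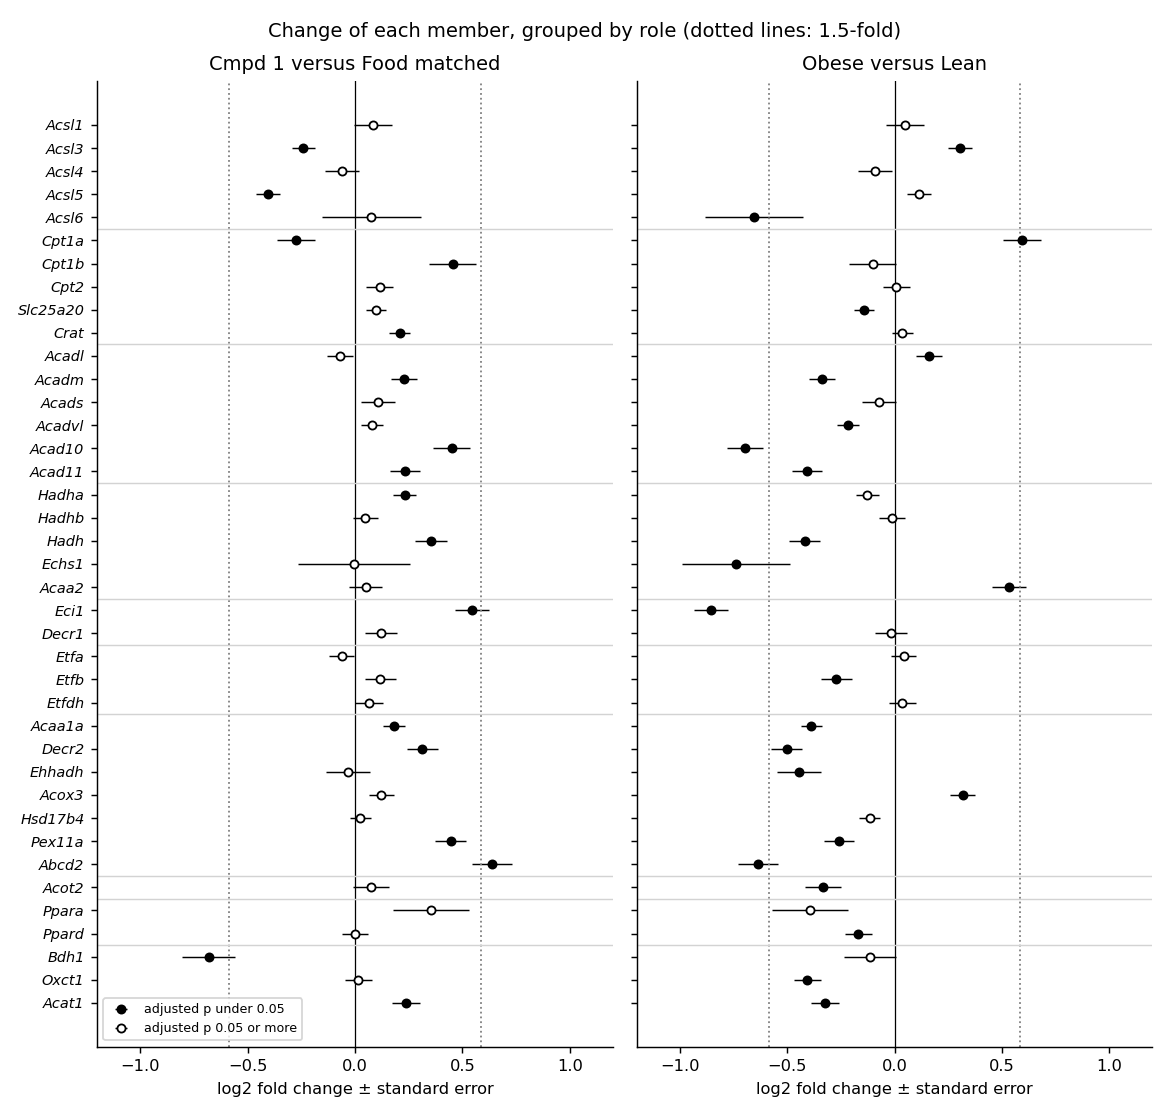
Log2 fold change of each of the 39 genes with its standard error, for Cmpd 1 versus Food matched (left) and Obese versus Lean (right), in order of role, with filled points for an adjusted p under 0.05 and dotted lines at 1.5-fold. In Cmpd 1 versus Food matched 13 filled points lie right of 0 and 4 left of it, and in Obese versus Lean 5 lie right of 0 and 19 left of it.

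In the account by role that follows, every rat is given for the DEGs of these contrasts and for the member with the smallest adjusted p in each role without a DEG, while any other member given with values was picked after its values were seen, including Acsl5, Cpt1b, Acaa2 and Pex11a, which are also given for every rat. A standard error, calculated from the log2 fold change and the F statistic of the edgeR test, follows a log2 fold change after ±. All counts by role are at an adjusted p under 0.05. In Obese versus Lean they stand beside 24.5% of all genes that fell and 23.7% that rose. In Cmpd 1 versus Food matched they stand beside 11.4% each way. Of the 5 activation genes 2 fell in Cmpd 1 versus Food matched, and 1 rose and 1 fell in Obese versus Lean, the latter near the shares of all genes. Acsl1 did not pass the test in either contrast (log2 fold change 0.08 in Cmpd 1 versus Food matched and 0.05 in Obese versus Lean, edgeR adjusted p = 0.562 and 0.67). Acsl5, a synthetase found on mitochondria and the endoplasmic reticulum, was at 93.1, 105, 108, 90.6 and 98.3 CPM in Cmpd 1 rats and 141, 143, 127, 126 and 119 CPM in Food matched rats. Obese rats had 113, 113, 121, 116 and 115 CPM and Lean rats 107, 103, 116, 106 and 102 CPM. Every Cmpd 1 rat was below every Food matched and every Obese rat. The log2 fold change was −0.41 ± 0.06 (standard error) in Cmpd 1 versus Food matched (edgeR adjusted p = 0.000119), the smallest adjusted p of any member in this contrast, and 0.11 in Obese versus Lean (edgeR adjusted p = 0.107). Acsl3, a synthetase of lipid droplets, fell by 0.24 on the log2 scale in Cmpd 1 versus Food matched and rose by 0.31 in Obese versus Lean (edgeR adjusted p = 0.00377 and 0.000116).

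Acsl6, a synthetase known mainly from the brain and by far the least abundant member, was at 1.15, 1.88, 1.27, 1.38 and 1.25 CPM in Cmpd 1 rats and 1.66, 0.89, 1.27, 1.29 and 1.48 CPM in Food matched rats. Obese rats had 1.58, 1.04, 1.33, 1.55 and 1.15 CPM and Lean rats 2.49, 3.34, 1.59, 1.59 and 1.47 CPM. The high values were those of Lean rats 1 and 2, the libraries with skeletal muscle transcripts. Its call in Obese versus Lean (−0.66 ± 0.23, edgeR adjusted p = 0.0224) was lost without these rats (−0.22, edgeR adjusted p = 0.425, with 0.0115 to 0.425 over the 18 alternatives). Leaving out Lean rat 1, Lean rat 2, Obese rat 2 or Obese rat 5 alone also ended it, with log2 fold changes of −0.59, −0.42, −0.57 and −0.61, as did fitting only the groups compared (−0.65).

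In the carnitine shuttle the isoforms of carnitine palmitoyltransferase 1, the step that commits long chains to oxidation, moved in different directions. Cpt1a, the liver type (ENSRNOG00000014254, chromosome 1 of rn6, 218569510 to 218629678, plus strand), was at 88.1, 84.3, 81.7, 76.6 and 85.7 CPM in Cmpd 1 rats and 109, 110, 104, 102 and 77.0 CPM in Food matched rats. Obese rats had 80.9, 77.6, 99.7, 98.4 and 87.1 CPM and Lean rats 53.1, 55.3, 61.4, 65.5 and 58.6 CPM. Every obese rat of any treatment was above every Lean rat, and Food matched rat 5 alone brought the Food matched range down to that of Cmpd 1. Cpt1a rose in Obese versus Lean by 0.59 ± 0.09 on the log2 scale, 1.51-fold (edgeR adjusted p = 1.29e-05), and fell by 0.27 ± 0.09 in Cmpd 1 versus Food matched (edgeR adjusted p = 0.0305, with 0.00161 to 0.0854 over the alternatives). In Obese versus Lean it stood so close to the threshold of 1.5-fold that it was no longer a DEG without Lean rat 1 (0.56), Lean rat 2 (0.57), Obese rat 3 (0.55) or Obese rat 4 (0.55), without both of these Lean rats (0.52) or with library size scaling (0.58), with an edgeR adjusted p of at most 0.000341 in all of these. Its adjusted p in Cmpd 1 versus Food matched was above 0.05 with library size scaling and without any of Food matched rats 1 to 4 or Cmpd 1 rats 3 and 4.

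Cpt1b, the muscle type, was at 104, 91.2, 85.1, 91.5 and 102 CPM in Cmpd 1 rats and 65.3, 54.1, 72.6, 73.2 and 80.0 CPM in Food matched rats. Obese rats had 101, 73.8, 58.3, 70.2 and 78.8 CPM and Lean rats 78.2, 83.3, 83.8, 82.3 and 82.4 CPM. Every Cmpd 1 rat was above every Food matched rat, whereas the Obese rats were spread on both sides of the narrow Lean range. It rose by 0.46 ± 0.11 on the log2 scale in Cmpd 1 versus Food matched (edgeR adjusted p = 0.00534) and did not pass the test in Obese versus Lean (−0.10, edgeR adjusted p = 0.472). Lean rats 1 and 2, the libraries with muscle transcripts, were at 78.2 and 83.3 CPM and the other Lean rats at 82.3 to 83.8 CPM, and the part of muscle in these values was not tested. As a share of the summed RPKM of both isoforms, Cpt1b made up 56.5 ± 1.53% (SD, n = 5) in Cmpd 1, 44.0 ± 6.77% in Food matched, 49.3 ± 7.13% in Obese and 61.5 ± 1.69% in Lean rats, given as a description. The share lay between 54.4 and 57.7% in Cmpd 1 rats, between 36.0 and 54.3% in Food matched, between 40.1 and 58.8% in Obese and between 59.0 and 63.2% in Lean rats. The Cmpd 1 rats were thus below all Lean rats and only just clear of Food matched rats (lowest Cmpd 1 share 54.35%, highest Food matched share 54.29%). The highest Food matched share was that of rat 5, which had the lowest macrophage sum of its group (5451 CPM) and 103 CPM of muscle transcripts, and their part in it was not tested.

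**Figure D3:**
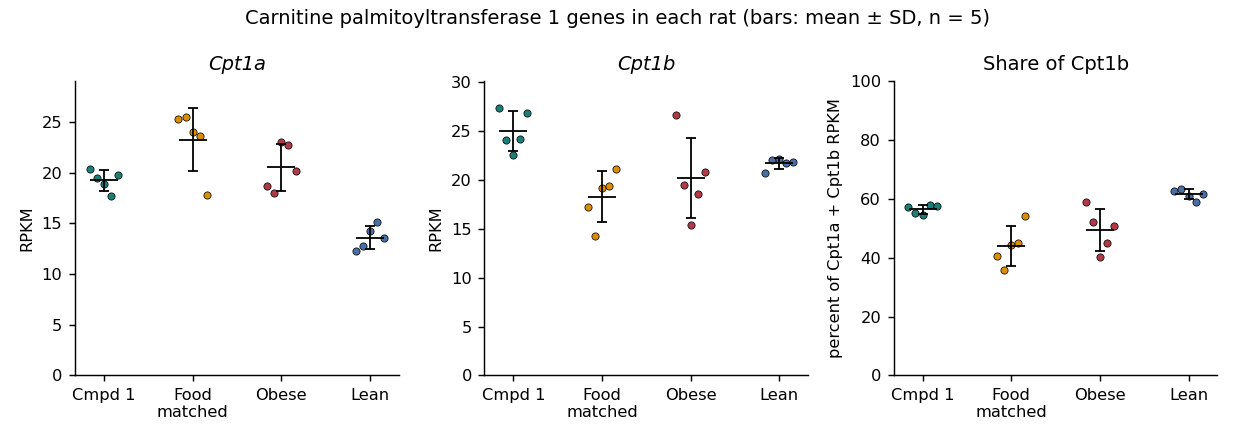
Cpt1a and Cpt1b in RPKM and the percent of their sum that is Cpt1b, for each rat of the Cmpd 1, Food matched, Obese and Lean groups (points; bars show mean ± SD, n = 5). The Cpt1b share averages 56.5% in Cmpd 1 and 44.0% in Food matched rats, and 49.3% in Obese and 61.5% in Lean rats.

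The rest of the shuttle changed little. Cpt2, the partner enzyme on the inner membrane, did not pass the test in either contrast (0.11 in Cmpd 1 versus Food matched and 0.01 in Obese versus Lean, edgeR adjusted p = 0.212 and 0.937). Slc25a20, the translocase that carries acylcarnitines inward, fell by 0.14 on the log2 scale in Obese versus Lean (edgeR adjusted p = 0.0157, with 0.00572 to 0.0529 over the alternatives). Crat, which exchanges acetyl groups with carnitine, rose by 0.21 in Cmpd 1 versus Food matched (edgeR adjusted p = 0.00377).

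Of the 6 acyl-CoA dehydrogenases, which take the first electrons in each round, 4 fell and 1 rose in Obese versus Lean, beside 24.5% and 23.7% of all genes. In Cmpd 1 versus Food matched 3 rose, beside 11.4% of all genes. Acad10, a member of the family whose substrates are less well known (ENSRNOG00000037815, chromosome 12 of rn6, 40417944 to 40460561, plus strand), was at 63.7, 60.4, 55.1, 72.0 and 64.4 CPM in Cmpd 1 rats and 44.3, 37.7, 49.0, 46.0 and 54.1 CPM in Food matched rats. Obese rats had 53.1, 53.0, 47.5, 47.2 and 49.0 CPM and Lean rats 93.9, 80.5, 73.7, 77.2 and 79.9 CPM. The Cmpd 1 rats formed a step of their own, above every Food matched and every Obese rat and below every Lean rat. Lean rats 1 and 2, the libraries with skeletal muscle transcripts, had the highest Acad10 levels, and the part of muscle was not tested. Without them the log2 fold change in Obese versus Lean was −0.62 (edgeR adjusted p = 1.43e-05). Over all rats Acad10 fell 1.62-fold in Obese versus Lean (−0.70 ± 0.08, edgeR adjusted p = 9.24e-07) and rose by 0.45 ± 0.08 in Cmpd 1 versus Food matched (edgeR adjusted p = 0.000871), a fold of 1.37. Acadm, the medium-chain enzyme, and Acad11, which acts on longer chains, followed the same signs (−0.34 and −0.41 in Obese versus Lean, edgeR adjusted p = 8.91e-05 and 5.9e-05; 0.23 and 0.23 in Cmpd 1 versus Food matched, edgeR adjusted p = 0.00848 and 0.0198). Acadvl, the very long-chain enzyme whose promoter holds the direct repeat printed above, fell by 0.22 in Obese versus Lean (edgeR adjusted p = 0.00128) and was at 0.08 in Cmpd 1 versus Food matched (edgeR adjusted p = 0.288). Acadl, the long-chain enzyme, rose by 0.16 in Obese versus Lean (edgeR adjusted p = 0.0355, with 0.00483 to 0.104 over the alternatives), against the direction of the others, and Acads, the short-chain enzyme, did not pass the test in either contrast.

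Among the later steps of the spiral, Acaa2, a thiolase, was at 554, 476, 417, 464 and 493 CPM in Cmpd 1 rats and 464, 384, 541, 448 and 487 CPM in Food matched rats. Obese rats had 493, 453, 435, 491 and 479 CPM and Lean rats 344, 332, 327, 317 and 304 CPM. All 15 obese rats were above all Lean rats, and the 3 obese groups overlapped. It rose by 0.53 ± 0.08 on the log2 scale in Obese versus Lean (1.45-fold, edgeR adjusted p = 9.48e-06) and was at 0.05 in Cmpd 1 versus Food matched (edgeR adjusted p = 0.715). Hadh, the short-chain 3-hydroxyacyl-CoA dehydrogenase, went the other way, falling by 0.42 ± 0.07 in Obese versus Lean and rising by 0.35 ± 0.07 in Cmpd 1 versus Food matched (edgeR adjusted p = 8.63e-05 and 0.00191). Its levels were 129 to 150 CPM in Cmpd 1, 88.8 to 119 in Food matched, 103 to 128 in Obese and 146 to 178 CPM in Lean rats, so that Cmpd 1 lay above both Food matched and Obese rats. Without Lean rats 1 and 2 the log2 fold change of Hadh in Obese versus Lean was −0.36 (edgeR adjusted p = 0.00154). Hadha, the alpha subunit of the trifunctional protein, rose by 0.23 in Cmpd 1 versus Food matched (edgeR adjusted p = 0.00377) without overlap of the groups, while its partner Hadhb, a neighbouring gene on chromosome 6, was at 0.05 (edgeR adjusted p = 0.634). In Obese versus Lean neither subunit passed the test (−0.13 and −0.01, edgeR adjusted p = 0.0542 and 0.901).

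Echs1 was at 1.65, 1.76, 1.77, 0.52 and 0.97 CPM in Cmpd 1 rats and 1.62, 1.06, 1.46, 1.08 and 1.56 CPM in Food matched rats. Obese rats had 1.93, 2.17, 1.17, 1.73 and 1.56 CPM and Lean rats 3.84, 2.63, 2.73, 2.77 and 2.34 CPM. All Lean rats were above all others. The fall in Obese versus Lean (−0.74 ± 0.25, edgeR adjusted p = 0.0202, with 0.00617 to 0.0861 over the alternatives) was lost without Lean rat 1 (−0.61), without Obese rat 3 (−0.63) and without Lean rats 1 and 2 together (−0.61).

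For unsaturated chains, Eci1, the mitochondrial isomerase that moves a double bond into the position the spiral can use (ENSRNOG00000008843, chromosome 10 of rn6, 13797562 to 13810913, plus strand), gave the smallest adjusted p of all members in Obese versus Lean. It was at 74.99, 82.6, 76.6, 92.6 and 83.2 CPM in Cmpd 1 rats and 57.5, 47.9, 60.5, 53.4 and 61.9 CPM in Food matched rats. Obese rats had 61.9, 68.8, 54.5, 58.9 and 63.2 CPM and Lean rats 127, 113, 103, 106 and 106 CPM. As with Acad10, every Cmpd 1 rat was above every Food matched and Obese rat and below every Lean rat. Eci1 fell 1.81-fold in Obese versus Lean (−0.86 ± 0.08, edgeR adjusted p = 2.23e-08) and rose 1.46-fold in Cmpd 1 versus Food matched (0.54 ± 0.08, edgeR adjusted p = 0.000142). Its highest levels were those of Lean rats 1 and 2, the libraries with skeletal muscle transcripts, and the part of muscle was not tested. Without these rats the log2 fold change in Obese versus Lean was −0.77 (edgeR adjusted p = 3.73e-07). Decr1, the mitochondrial reductase for conjugated double bonds, did not pass the test in either contrast (0.12 in Cmpd 1 versus Food matched and −0.02 in Obese versus Lean, edgeR adjusted p = 0.272 and 0.875).

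In electron transfer 1 of 3 members moved. Etfb, the beta subunit of the flavoprotein, was at 170, 161, 142, 158 and 155 CPM in Cmpd 1 rats and 145, 124, 164, 141 and 149 CPM in Food matched rats. Obese rats had 159, 143, 145, 157 and 149 CPM and Lean rats 214, 163, 177, 176 and 180 CPM. Every Obese rat was below every Lean rat, and it fell by 0.27 ± 0.07 on the log2 scale in this contrast (edgeR adjusted p = 0.00359). Without Lean rats 1 and 2 the log2 fold change of Etfb was −0.24 (edgeR adjusted p = 0.00993). Its partner Etfa was at 0.04 in the same contrast (edgeR adjusted p = 0.587), and neither these nor Etfdh, which hands the electrons to ubiquinone, passed the test in Cmpd 1 versus Food matched (edgeR adjusted p = 0.267, 0.505 and 0.519 for Etfb, Etfa and Etfdh).

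Of the 7 peroxisomal members 5 fell and 1 rose in Obese versus Lean, beside 24.5% and 23.7% of all genes. In Cmpd 1 versus Food matched 4 rose and 0 fell, beside 11.4% of all genes each way, and the class medians in these contrasts were −0.39 and 0.18 on the log2 scale. Abcd2, a transporter that brings long and very long acyl-CoA into the peroxisome (ENSRNOG00000015538, chromosome 7 of rn6, 132294562 to 132343169, minus strand), was at 369, 334, 362, 415 and 344 CPM in Cmpd 1 rats and 204, 191, 265, 226 and 287 CPM in Food matched rats. Obese rats had 305, 295, 254, 302 and 296 CPM and Lean rats 419, 412, 487, 463 and 476 CPM. Every Cmpd 1 rat was above every Food matched and every Obese rat, and every Obese rat was below every Lean rat. Abcd2 fell 1.55-fold in Obese versus Lean (−0.64 ± 0.09, edgeR adjusted p = 1.09e-05), a fall that was larger without Lean rats 1 and 2 (−0.71, edgeR adjusted p = 1.68e-05). It rose 1.56-fold in Cmpd 1 versus Food matched (0.64 ± 0.09, edgeR adjusted p = 0.000163). Without Food matched rat 2, its lowest value, the rise was 0.57 and under 1.5-fold (edgeR adjusted p = 0.000531, with 7.13e-09 to 0.00127 over the alternatives).

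Pex11a, which drives the division of peroxisomes, was at 125, 122, 119, 132 and 122 CPM in Cmpd 1 rats and 94.1, 78.8, 92.2, 85.2 and 105 CPM in Food matched rats. Obese rats had 104, 110, 91.2, 93.5 and 102 CPM and Lean rats 115, 106, 132, 122 and 124 CPM. The Cmpd 1 rats were above all Food matched and Obese rats and within the Lean range. It rose by 0.45 ± 0.07 on the log2 scale in Cmpd 1 versus Food matched and fell by 0.26 ± 0.07 in Obese versus Lean (edgeR adjusted p = 0.000278 and 0.0051). Decr2, the peroxisomal reductase, and Acaa1a, the peroxisomal thiolase, fell by 0.50 and 0.39 in Obese versus Lean (edgeR adjusted p = 7.56e-06 and 2.37e-06) and rose by 0.31 and 0.18 in Cmpd 1 versus Food matched (edgeR adjusted p = 0.0037 and 0.0134). Acaa1a has a closely similar gene copy, so its uniquely mapped reads are uncertain. Ehhadh, the bifunctional enzyme, fell by 0.44 in Obese versus Lean (edgeR adjusted p = 0.00106) and was at −0.03 in Cmpd 1 versus Food matched (edgeR adjusted p = 0.867), and Acox3, an oxidase of branched chains, rose by 0.32 in Obese versus Lean (edgeR adjusted p = 0.000162). Summed over the 7 genes, the level was 928 to 1016 CPM in Cmpd 1, 680 to 843 in Food matched, 771 to 862 in Obese and 985 to 1120 CPM in Lean rats, so the Cmpd 1 sums did not overlap with those of Food matched or Obese rats. Most of these differences came from Abcd2. The mean sums were 956 CPM in Cmpd 1, 772 in Food matched and 840 in Obese rats. Means of Abcd2 alone were 365, 235 and 291 CPM in the same order. The 16 members of the mitochondrial spiral and electron transfer summed to 3399 to 3756 CPM in Cmpd 1, 2849 to 3641 in Food matched, 3060 to 3615 in Obese and 3476 to 3683 CPM in Lean rats, and these ranges overlapped.

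**Figure D4:**
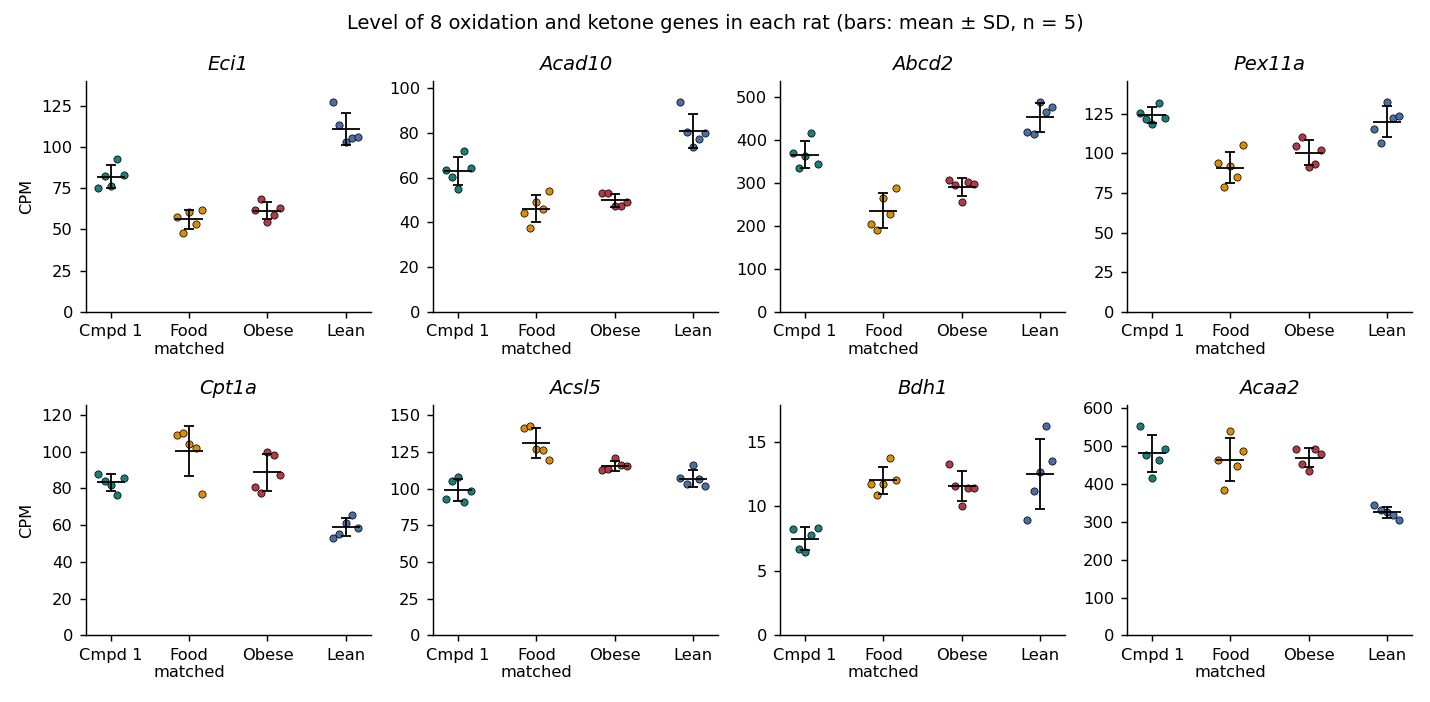
Level in CPM of 8 genes in each rat of the Cmpd 1, Food matched, Obese and Lean groups (points; bars show mean ± SD, n = 5; each axis starts at 0). For Eci1 and Acad10 the Cmpd 1 rats lie between the other obese rats and the Lean rats, for Bdh1 they lie below all others, and for Acaa2 they overlap with the other obese rats.

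Acot2, the mitochondrial thioesterase that releases fatty acids from coenzyme A, was at 17.9, 16.9, 14.02, 18.7 and 16.5 CPM in Cmpd 1 rats and 16.01, 15.7, 14.7, 16.2 and 17.1 CPM in Food matched rats. Obese rats had 16.2, 16.2, 13.5, 14.5 and 15.1 CPM and Lean rats 20.98, 21.997, 17.6, 17.3 and 17.3 CPM. Every Obese rat was below every Lean rat, with Lean rats 1 and 2 highest, and the fall was 0.33 ± 0.08 on the log2 scale (edgeR adjusted p = 0.0022). Without these Lean rats the log2 fold change was −0.20 (edgeR adjusted p = 0.0492, with 0.000468 to 0.0492 over the alternatives). Acot2 belongs to a family of closely similar genes, so its uniquely mapped reads are uncertain.

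Of the regulators, Ppard was at 25.4, 23.04, 23.3, 28.7 and 26.2 CPM in Cmpd 1 rats and 24.7, 24.9, 22.9, 28.1 and 26.1 CPM in Food matched rats. Obese rats had 23.9, 23.1, 23.2, 24.5 and 23.3 CPM and Lean rats 25.9, 25.0, 25.5, 27.6 and 28.6 CPM. The Obese rats were all below the Lean rats by a small step (−0.17 ± 0.06, edgeR adjusted p = 0.0279, with 0.00611 to 0.0933 over the alternatives), and Ppard did not pass the test in Cmpd 1 versus Food matched (edgeR adjusted p = 0.995). Ppara, the receptor best known from the liver, did not pass the test in Cmpd 1 versus Food matched (0.36 ± 0.18, edgeR adjusted p = 0.164) or in Obese versus Lean (−0.39 ± 0.18, edgeR adjusted p = 0.071).

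The genes of ketone use diverged. Bdh1, the mitochondrial dehydrogenase that turns 3-hydroxybutyrate into acetoacetate (ENSRNOG00000001736, chromosome 11 of rn6, 72578533 to 72614176, minus strand), was at 8.27, 6.67, 6.46, 7.75 and 8.28 CPM in Cmpd 1 rats and 11.7, 10.9, 11.7, 13.7 and 12.002 CPM in Food matched rats. Obese rats had 13.3, 11.6, 10.02, 11.4 and 11.4 CPM and Lean rats 8.96, 11.1, 12.6, 16.2 and 13.5 CPM. Every Cmpd 1 rat was below every rat of the other groups, which overlapped with each other. Bdh1 fell 1.60-fold in Cmpd 1 versus Food matched (−0.68 ± 0.12, edgeR adjusted p = 0.000609) and did not pass the test in Obese versus Lean (−0.12 ± 0.12, edgeR adjusted p = 0.456). Without Lean rats 1 and 2 it did pass in Obese versus Lean, as a fall (−0.29, edgeR adjusted p = 0.0326, with 0.0326 to 0.982 over the alternatives). Oxct1, the transferase of the next step, was at 648 to 693 CPM in Cmpd 1, 628 to 755 in Food matched, 652 to 808 in Obese and 925 to 1089 CPM in Lean rats. It fell by 0.41 ± 0.06 on the log2 scale in Obese versus Lean (edgeR adjusted p = 2.16e-05) and was at 0.01 ± 0.06 in Cmpd 1 versus Food matched (edgeR adjusted p = 0.907). Acat1, the thiolase that yields acetyl-CoA from ketone bodies, fell by 0.32 in Obese versus Lean and rose by 0.24 in Cmpd 1 versus Food matched (edgeR adjusted p = 0.000324 and 0.0111).

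Set side by side, the contrasts with no rat in common placed 10 members lower in Obese versus Lean and higher in Cmpd 1 versus Food matched at an adjusted p under 0.05. These were Abcd2, Acaa1a, Acad10, Acad11, Acadm, Acat1, Decr2, Eci1, Hadh and Pex11a, 52.6% of the 19 members that fell in the first contrast and 76.9% of the 13 that rose in the second. Over all genes the corresponding 1367 genes were 31.6% of 4320 and 67.8% of 2015. Acsl3 and Cpt1a were higher in the first and lower in the second (40% of 5 and 50% of 4, against 39.4% and 81.8% over all genes). No member passed in the same direction in both, as 57 genes did upward and 53 downward among all genes tested. Of the 9 adipocyte markers, 7 were lower and 1 higher in Obese versus Lean and 5 were higher and 2 lower in Cmpd 1 versus Food matched. Among them Adipoq, adiponectin, and Lipe, a lipase, were lower in the first contrast and higher in the second (−0.76 and 0.47 for Adipoq, edgeR adjusted p = 4.09e-07 and 0.000725), while Lep, leptin, had the reverse signs (0.73 and −0.55, edgeR adjusted p = 1.08e-05 and 0.00109). Fabp4, a fatty acid carrier, did not pass in the first and fell by 0.29 in the second (edgeR adjusted p = 0.666 and 0.0112). Their part in the members' changes was not tested.

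**Figure D5:**
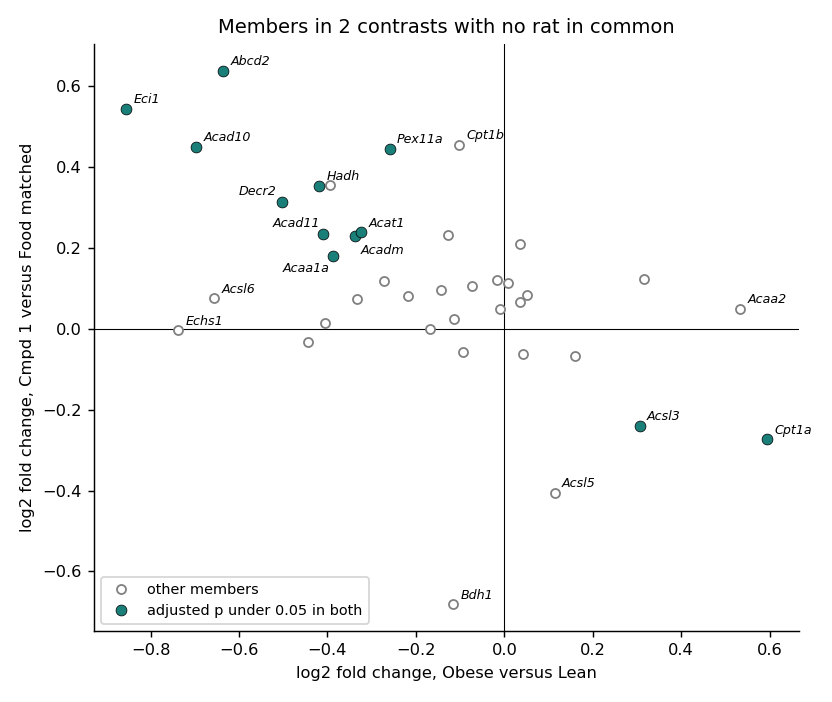
Log2 fold change of the 39 genes in Obese versus Lean (horizontal) against that in Cmpd 1 versus Food matched (vertical), with filled points for an adjusted p under 0.05 in both. The filled points are 10 genes at upper left and 2, Acsl3 and Cpt1a, at lower right.

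Cmpd 1 versus Obese, which shares rats with both contrasts above, held 8 higher and 2 lower members at an adjusted p under 0.05 (20.5% and 5.13% of members, against 7.09% and 6.93% of all genes). The higher ones were Eci1 (0.42 ± 0.08, edgeR adjusted p = 0.00255), Decr2 (0.36), Acad10 (0.34), Abcd2 (0.33), Pex11a (0.31), Acaa1a, Hadha and Crat. Without Cmpd 1 rat 4, the library with the fewest reads (31716457), there were 4 higher members (Acad10, Decr2, Eci1 and Pex11a). Without Obese rat 3 there were 5, while library size scaling gave 14. That scaling moved the median log2 fold change of all genes by 0.06 in this contrast. Shares of all genes under these settings were not counted, so these counts are descriptions. As DEGs 0 members were higher (0.731% of all genes), also with limma-voom and DESeq2, and 1 was lower (2.8% of all genes), with 16 members and 4959 of all 17653 genes at an unadjusted p under 0.05 in either direction. The lower one was Bdh1, 1.54-fold (−0.62 ± 0.12, edgeR adjusted p = 0.00321, with 3.79e-05 to 0.00999 over the alternatives), and its fold was under 1.5 without Obese rat 1 (−0.57), Cmpd 1 rat 2 (−0.58) or Cmpd 1 rat 3 (−0.58) and with library size scaling (−0.57). Acsl5, the other lower member at an adjusted p under 0.05, did not pass without Cmpd 1 rat 4 or with library size scaling. The macrophage marker sum was lower in every Cmpd 1 than in every Obese rat (2918 to 4584 against 4729 to 6489 CPM). Of the 10 macrophage markers 5 were lower and 0 higher at an adjusted p under 0.05, while the adipocyte marker sums overlapped. The part of cell makeup in the members' changes was not tested.

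No member passed the test between Food matched and Obese rats. In Food matched versus Obese edgeR gave 0 members and 0 of 17653 genes (0% of genes higher and 0% lower) at an adjusted p under 0.05 at any fold, and so 0% higher and 0% lower as DEGs. At an unadjusted p under 0.05 there were 5 members and 1887 genes, and limma-voom and DESeq2 also called 0 members, though among all genes limma-voom called 4 higher and 6 lower and DESeq2 29 higher and 40 lower as DEGs. The 5 members were Ehhadh (0.31), Acsl5 (0.18), Abcd2 (−0.31), Oxct1 (−0.18) and Acat1 (−0.18). The smallest edgeR adjusted p was 0.204 among members (Abcd2) and 0.0647 among all genes. Without Food matched rat 5, Abcd2 passed (edgeR adjusted p = 0.0286, with 0.0286 to 0.456 over the alternatives). A p that misses the threshold does not show equal levels.

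Between Cmpd 1 and Lean rats, 14 members were lower and 6 higher at an adjusted p under 0.05 (35.9% and 15.4%, against 18.6% and 20.3% of all genes), and 3 were lower and 0 higher as DEGs (beside 9.11% and 7.47% of all genes). At an unadjusted p under 0.05 there were 22 members and 8251 of all 17653 genes, and limma-voom and DESeq2 also gave 0 higher DEGs. The lower DEGs were Bdh1 (1.67-fold, edgeR adjusted p = 7.28e-05), Echs1 (2.12-fold, edgeR adjusted p = 0.00208) and Acsl6, whose call was lost in 11 of its 18 alternatives and stood at −0.16 without Lean rats 1 and 2 (edgeR adjusted p = 0.6, with 0.0214 to 0.6 over the alternatives). Oxct1, 1.49-fold lower, had the smallest adjusted p of the members (edgeR adjusted p = 7.83e-07) and lay just under the fold threshold, which it passed without Lean rat 1 (−0.60) or Lean rat 2 (−0.59), without both (−0.64) and with no filter on low counts (−0.59). Acaa2, 1.48-fold higher (0.57, edgeR adjusted p = 9.47e-06), became a DEG without Lean rat 1 (0.59), Cmpd 1 rat 3 (0.61), without Lean rats 1 and 2 (0.61) or with library size scaling (0.60). Eci1, Acad10 and Abcd2 were lower in Cmpd 1 than in Lean rats (−0.44, −0.36 and −0.31, edgeR adjusted p = 0.000146, 0.00189 and 0.0126), and Cpt1a higher (0.50, edgeR adjusted p = 0.000145), while Pex11a did not pass the test (0.05, edgeR adjusted p = 0.645). Markers differed in this contrast too. At an adjusted p under 0.05, 8 of 10 macrophage markers were higher and 0 lower. Lower ones were 7 of 9 adipocyte markers, with 0 higher, and all 12 muscle markers tested. Their part in the members' changes was not tested.

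Other genes of the same pathways, from lists chosen by role with earlier results of these data known, were counted in the same fits. The counts of these lists stand beside those of all genes, of which 24.5% fell and 23.7% rose in Obese versus Lean at an adjusted p under 0.05 (11% and 11.3% as DEGs). In Cmpd 1 versus Food matched 11.4% of all genes rose and 11.4% fell (1.54% and 4.65% as DEGs). Of 39 further oxidation genes tested, 20 fell and 6 rose in Obese versus Lean at an adjusted p under 0.05 (7 and 4 as DEGs), and 11 rose and 5 fell in Cmpd 1 versus Food matched (1 and 1 as DEGs), with medians of −0.25 and 0.13 on the log2 scale. The DEGs of the smallest adjusted p in Obese versus Lean were Acsm5, a medium-chain synthetase (−2.69, edgeR adjusted p = 4.19e-10), Pecr, a peroxisomal trans-enoyl-CoA reductase (−0.66, edgeR adjusted p = 2.39e-09), Phyh, which starts the breakdown of phytanic acid (−0.90, edgeR adjusted p = 5.04e-09), and Acacb, which makes the malonyl-CoA that holds back carnitine palmitoyltransferase 1 (−0.97, edgeR adjusted p = 5.72e-09). Those of Cmpd 1 versus Food matched were Pdk4, the kinase that turns pyruvate dehydrogenase off (−1.12, edgeR adjusted p = 0.00301), and Acsm5 (0.68, edgeR adjusted p = 0.00585). Pdk4 was at 60.5, 69.2, 63.1, 60.8 and 100 CPM in Cmpd 1 rats and 177, 158, 216, 135 and 83.8 CPM in Food matched rats. Obese rats had 61.9, 86.0, 87.7, 118 and 137 CPM and Lean rats 33.0, 37.2, 67.4, 68.7 and 54.4 CPM. As with Cpt1a, Food matched rat 5 was the lowest of its group, and its value overlapped with the Cmpd 1 range.

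Of 15 genes of peroxisome biogenesis 7 rose and 0 fell in Cmpd 1 versus Food matched, with a median of 0.21 on the log2 scale, and 7 fell and 1 rose in Obese versus Lean, with a median of −0.07. None was a DEG in either contrast by edgeR. Named after their values were seen, Pex13, a part of the import machinery, was at 50.6 to 54.1 CPM in Cmpd 1, 39.7 to 47.0 in Food matched, 41.3 to 48.1 in Obese and 53.5 to 57.2 CPM in Lean rats (0.29 in Cmpd 1 versus Food matched, edgeR adjusted p = 0.000286), and Cat, catalase, was at 694 to 802 CPM in Cmpd 1, 579 to 704 in Food matched, 614 to 748 in Obese and 869 to 948 CPM in Lean rats (0.21 in Cmpd 1 versus Food matched, edgeR adjusted p = 0.0164). Pex14, the docking protein, rose in both contrasts (0.25 in Cmpd 1 versus Food matched and 0.23 in Obese versus Lean, edgeR adjusted p = 0.00482 and 0.00368).

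Of 8 further ketone genes 5 fell and 0 rose in Obese versus Lean, 2 of them as DEGs, Acss3, a synthetase for short chains such as propionate (−3.40, edgeR adjusted p = 8.07e-13), and Bdh2, the cytosolic dehydrogenase (−1.07, edgeR adjusted p = 5.45e-07). Among the same 8 genes 1 rose and 1 fell in Cmpd 1 versus Food matched, with 0 DEGs. Bdh2 was the one that rose (0.57, edgeR adjusted p = 0.00255), the opposite direction to Bdh1 in the same contrast. Among 25 regulators and targets, 9 fell and 7 rose in Obese versus Lean, beside 24.5% and 23.7% of all genes. As DEGs 3 fell and 5 rose, beside 11% and 11.3% of all genes. The DEGs of the smallest adjusted p were Fabp3, a fatty acid binding protein (2.55, edgeR adjusted p = 8.43e-09), Ucp2, an uncoupling protein that macrophages also express (1.31, edgeR adjusted p = 8.6e-09), Nr1h3, the liver X receptor alpha (−0.59, edgeR adjusted p = 9.2e-09), and Plin2, a lipid droplet coat protein (1.89, edgeR adjusted p = 3.08e-08). Of these 25 genes 3 rose and 3 fell in Cmpd 1 versus Food matched, with Plin2 as the DEG (−0.99, edgeR adjusted p = 0.000512). Plin2 was at 428 to 695 CPM in Cmpd 1, 788 to 1372 in Food matched, 722 to 1180 in Obese and 192 to 324 CPM in Lean rats, without overlap between Cmpd 1 and Food matched. The macrophage marker sum followed the same order of groups, and its part in these values was not tested.

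Single libraries set part of the spread within groups. Food matched rat 2 had the lowest value of its group for 29 of 39 members and Obese rat 3 for 28, while Obese rat 1 had the highest for 20. Food matched rat 2 also had the lowest adipocyte marker sum of its group (19160 CPM) and the highest macrophage sum (8841 CPM), and Obese rat 3 the lowest adipocyte sum of its group (20770 CPM). Their part in the members' values was not tested. Under the alternatives, 14 of the 17 members at an adjusted p under 0.05 in Cmpd 1 versus Food matched passed in all 18, with Acaa1a, Acad11 and Cpt1a as the exceptions, and 19 of 24 did so in Obese versus Lean, with Acadl, Acsl6, Echs1, Ppard and Slc25a20 as the exceptions. Some members passed under at least 1 alternative only. These were Acox3 and Slc25a20 in Cmpd 1 versus Food matched, and Acsl5, Bdh1, Hadha, Hsd17b4 and Ppara in Obese versus Lean.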

How the data were processed

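RNA of iWAT from 5 rats per group was sequenced with a stranded mRNA kit. The authors deposited raw read counts per gene, made from uniquely mapped reads with STAR and featureCounts on the rat genome rn6 per the study's methods. The submitters' processing notes name STAR 2.5.2, Subread 1.5.1 and the human build GRCh38, so the versions are uncertain. Whether reads were counted by strand is not given in the sources used here, so genes that overlap an antisense gene are uncertain.

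From these counts, genes with no reads in at least 10 of 20 libraries were left out (14892 of 32545, of which 10187 had no read), and 17653 were tested with edgeR 4.0.16 under R 4.3.3. The quasi-likelihood test used TMM scaling, 1 model of the 4 groups with 16 residual degrees of freedom, and Benjamini-Hochberg adjustment over all 17653 genes. A DEG had a fold over 1.5 and an adjusted p under 0.05. CPM are counts over TMM-scaled library sizes. The counting scripts were tested on simulated data. The alternatives, 18 for each contrast, were limma-voom (limma 3.58.1), DESeq2 1.42.0, library size scaling, no filter on low counts, filterByExpr, a fit of the compared groups only, the replicate number as a block, leaving out each rat, and leaving out Lean rats 1 and 2. The labels name separate rats, and every pair of rats within a group differed by far more than sampling noise (smallest chi-square per gene 17.1 to 20). Counting error is small at these depths except for Acsl6, Echs1 and Ppara.

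The members and the gene lists were chosen with earlier results of these data known. By rule the value of every rat is given for the DEGs of Obese versus Lean or Cmpd 1 versus Food matched and for the member with the smallest adjusted p in each role without a DEG. Acsl5, Cpt1b, Acaa2 and Pex11a are outside this rule, and they and Pdk4 were given rat by rat after their values were seen. From each of the other pathway lists at most 4 DEGs per contrast are named, in order of adjusted p. Columns of no sample in the table numbered 0.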

Additional observations from a re-analysis of the deposited data

Results flagged for a closer look

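Of 156 sets of 5 rats (39 members in 4 groups), 10 held a rat whose gap to its nearest neighbour was over 0.71 of the whole range of the group, Dixon's critical value for 5 samples, and chance gives about 1 in 20, or 7.8. In Food matched rats, Acadvl was lowest in rat 2 at 136 CPM (next 159), Hadhb was lowest in rat 2 at 417 CPM (next 472), Acad11 was highest in rat 3 at 169 CPM (next 138) and Cpt1a was lowest in rat 5 at 77.0 CPM (next 102). In Obese rats, Ppara was highest in rat 2 at 4.48 CPM (next 3.36), and Abcd2 and Hadha were lowest in rat 3, at 254 and 515 CPM (next 295 and 570.3). In Lean rats, Cpt1b was lowest in rat 1 at 78.2 CPM (next 82.3), Echs1 was highest in rat 1 at 3.84 CPM (next 2.77) and Acadm was lowest in rat 4 at 213 CPM (next 231).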

How the results depend on the processing

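Of 3510 log2 fold changes of single members under the alternatives, 3377 kept direction and side of the threshold, 31 lost it, 8 gained it, 0 called ones changed sign and 94 without a call changed sign or moved. Higher DEGs in Obese versus Lean numbered 1, and 0 with library size scaling and without Lean rats 1 and 2 (0 to 1 on leaving out 1 rat). Lower ones numbered 5, and 3 without Lean rats 1 and 2 (3 to 5 on leaving out 1 rat). Over all genes, leaving out Lean rats 1 and 2 gave 1874 higher and 1503 lower DEGs in place of 1991 and 1938. In Cmpd 1 versus Food matched the higher DEGs ran from 0 to 1 on leaving out 1 rat. In Cmpd 1 versus Obese, library size scaling gave 0 lower DEGs in place of 1, 14 higher members at an adjusted p under 0.05 in place of 8, and 1 lower in place of 2, and leaving out 1 rat gave 0 to 1, 4 to 9 and 1 to 3. In Food matched versus Obese the lower members at an adjusted p under 0.05 ran from 0 to 1 on leaving out 1 rat. In Cmpd 1 versus Lean, library size scaling and leaving out Lean rats 1 and 2 each gave 1 higher DEG in place of 0 (0 to 1 on leaving out 1 rat). The cause of these differences was not tested. Rats of the same number did not deviate together (30 pairs, correlations −0.0635 to 0.105), and with the replicate number as a block 1 count of DEGs changed, 2 in place of 3 lower in Cmpd 1 versus Lean (Acsl6, −0.57). Library size scaling shifted the median of all genes by less than 0.1 on the log2 scale in each contrast. Depth limited mainly Acsl6, Echs1 and Ppara. Whether changes under 1.5-fold reflect cell makeup was not tested.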
